A study of Gallus gallus with 24 samples.

Results

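The conA and Control libraries were the 12 RNA sequencing libraries, of 24 in the series, that were chosen by their treatment label: 6 from peripheral blood mononuclear cells (PBMCs) cultured for 24 h with concanavalin A (conA, 10 µg/mL) and 6 from PBMCs kept for 24 h in medium alone (Control). The PBMCs came from the blood of 6 commercial Cobb500 broilers of 4 to 6 weeks, with 1 conA and 1 Control library for each bird. In the study, conA was the positive control for proliferation. The remaining libraries were from PBMCs of the same birds with vital *Bacillus subtilis* DSM 32315 (BS, 6 libraries) or *Bacillus velezensis* CECT 5940 (BV, 6 libraries), at 3 bacteria per PBMC. Treatment began on the day after PBMC isolation, and all groups were in RPMI 1640 with chicken serum at 41°C. Duplicate wells of each bird were pooled, so the bird was the replicate.

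Concanavalin A is a plant lectin that binds mannose-type sugars on surface glycoproteins. On T cells it crosslinks the T cell receptor complex and so acts as a mitogen that does not depend on antigen. In mammals the response runs through calcium, mitogen-activated protein kinase and NF-kB signaling to immediate early transcription factors. Interleukin 2 and its receptor, costimulatory receptors, ribosome production and, later, the cell cycle follow. Chicken PBMC preparations also hold nucleated thrombocytes, the avian counterpart of platelets, which sediment with the mononuclear cells.

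Total counts were 20645659 to 31242160 in conA libraries and 20189066 to 29764271 in Control libraries, with reads for 15103 to 16509 and 15108 to 17200 genes. Of the 7 lists of cell type markers, T cell markers summed to 67231 to 74657 normalized read counts in conA libraries and 57239 to 77387 in Control libraries, B cell markers to 2288 to 3286 and 1896 to 4827, and monocyte and macrophage markers to 356 to 1406 and 208 to 1466. Normalized read counts are the deposited counts divided by a size factor for each library, so a level is relative to the other RNA in the same library. In chickens 3 to 6 the conA libraries carried numbers 57 to 60, apart from their Control libraries (37, 40, 43 and 46), whereas chickens 1 and 2 had all libraries numbered 29 to 36. What the numbers stand for is not given, so in chickens 3 to 6 the numbering and conA cannot be told apart.

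The number of the biological replicate names the bird, and it paired libraries in 4 of the 6 birds. Over 13024 genes, deviations from the group mean correlated between the conA and the Control library of the same number with r = 0.77, 0.54, 0.36 and 0.62 in chickens 1, 2, 4 and 6, but with r = -0.03 in chicken 3 and 0.08 in chicken 5. The 100 genes that differed most between birds, chosen from the Control, BS and BV libraries alone, were then read in the conA libraries. There, conA 3 matched chicken 5 (r = 0.87, against -0.25 with chicken 3) and conA 5 matched chicken 3 (r = 0.89, against -0.26 with chicken 5). The other conA libraries each matched their own number, with r from 0.84 to 0.92. The points of these correlations are genes of shared libraries, so they are given as a description. The libraries labelled conA 3 and conA 5 therefore go against their numbers, while their treatment label does not depend on this. Values of the unpaired fit and padj of the fit that holds the bird as a block (blocked padj) are given side by side for most genes named. That block used the numbers as labelled, with the doubted chickens 3 and 5 included.

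**Figure D1:**
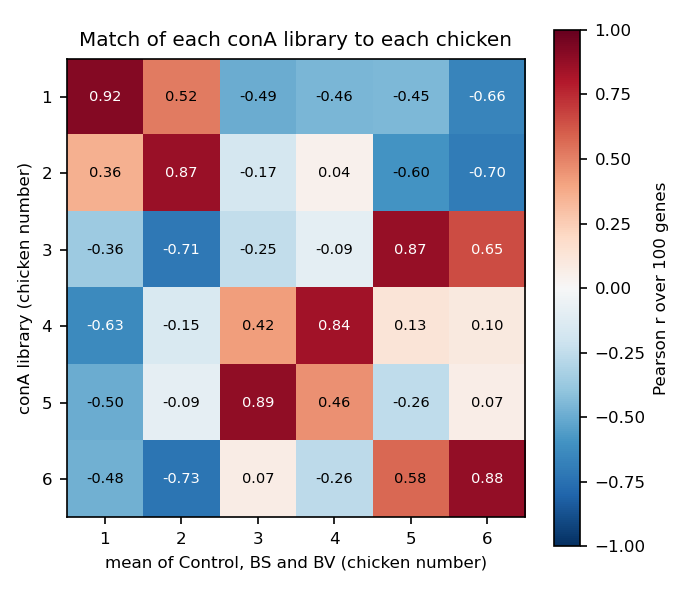
Pearson correlation of each conA library (rows) with the mean of the Control, BS and BV libraries of each chicken (columns) over the 100 genes that differed most between birds in Control, BS and BV. The diagonal is 0.84 to 0.92 for chickens 1, 2, 4 and 6, while conA 3 is highest with chicken 5 (0.87) and conA 5 with chicken 3 (0.89).

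Without the block, most of the genes that passed the test were higher with conA, and with the block more genes were called down than up. Of 20266 genes tested, 169 (0.834% of those tested) were called up and 8 (0.0395%) were called down in the unpaired fit. A gene was called at an adjusted p-value (padj, Benjamini-Hochberg over all genes tested, edgeR's quasi-likelihood test) under 0.05 with an absolute log2 fold change (Log2 FC, conA over Control) above 1.5. At padj under 0.05 alone, 446 genes (2.2%) were up and 28 (0.138%) were down. With the bird as a block the numbers called were 193 up (0.952%) and 298 down (1.47%). With both thresholds the block thus changed the count of induced genes little and the count of reduced genes by far more. At padj under 0.05 alone both counts rose with the block, to 714 up (3.52%) and 526 down (2.6%). Of the 169 genes called up unpaired, 165 were also called up in the blocked fit. Without chickens 3 and 5, whose numbers are in doubt, the blocked fit called 150 up and 297 down, and with conA 3 and conA 5 exchanged, a setting chosen after seeing the data, 202 up and 323 down. Chickens 1, 2, 4 and 6 without the block gave 85 up and 0 down (1 down at padj under 0.05 alone), and DESeq2 called 32 down in the 12 libraries. The unpaired count of 8 down was 1 without conA 2, 2 without conA 3, conA 5 or conA 6, 4 without conA 4, 3 without Control 2 and 15 without Control 6. The 28 at padj alone fell to between 6 (without conA 3) and 18 without any 1 of conA 2, conA 3, conA 5, conA 6, Control 2, Control 4 or Control 5, and the 446 up fell to 295 without conA 3.

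**Figure D2:**
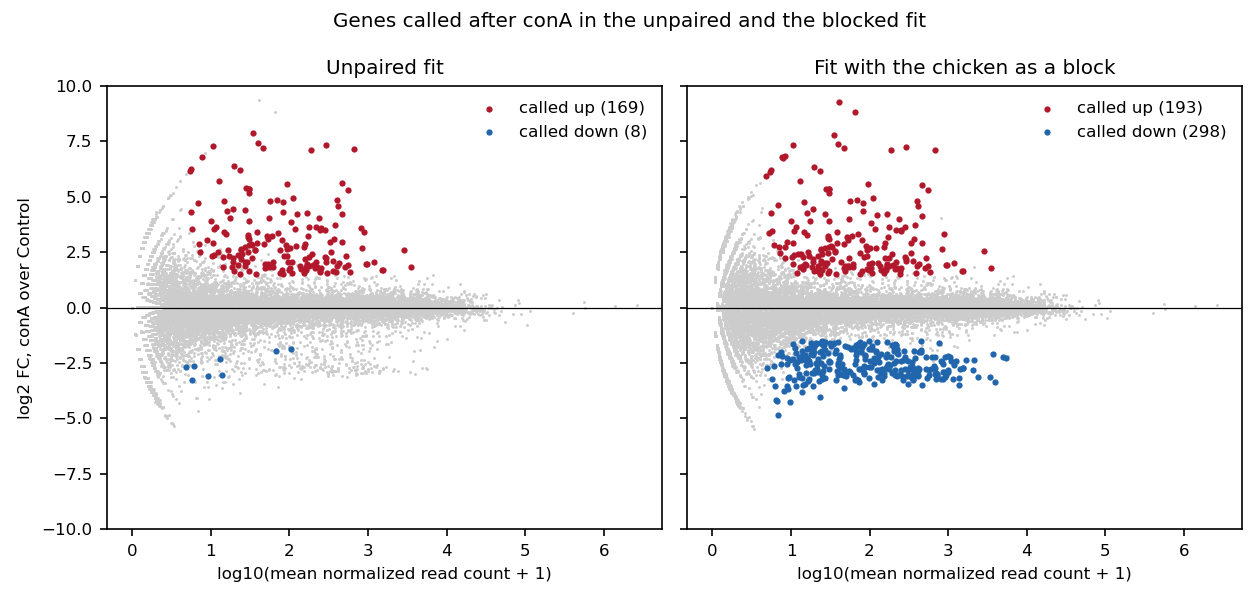
Log2 FC of conA over Control (vertical axis) against the log10 of the mean normalized read count + 1 (horizontal axis) for each of the 20266 genes, in the unpaired fit (left) and in the fit with the chicken as a block (right). The 169 and 193 genes called up (red) cover a similar area in both panels, whereas the band of genes near -2.5 passes the thresholds only in the right panel, with 8 and 298 genes called down (blue).

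Of the 169 genes called up, 125 had every conA library above every Control library, against 383 genes of all tested (1.89%), and of the 8 called down, 3 lay wholly below Control, against 77 of all tested (0.38%). The median Log2 FC of the 169 was 2.64, a 6.25-fold difference, and 39 of them were above 4. A symbol was given for 126 of the 169 and for 4 of the 8 called down. Of those 8, 6 averaged under 50 normalized counts over the 12 libraries. The strength of the response varied between conA libraries: the highest value was in conA 3 for 69 of the 169 genes and in conA 6 for 57, while the lowest was in conA 4 for 70 and in conA 1 for 46. The 169 all had a positive Log2 FC in chickens 1 and 2 alone (median 2.36) and in chickens 3 to 6 alone (median 2.86). The same libraries chose the 169, so these signs are a description and no independent test. With the 4 libraries of chickens 1 and 2 alone, 25 genes were called up and 3 down, and with those of chickens 3 to 6, 158 and 21.

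Among secreted factors, XCL1 and CCL1 were near 0 in Control libraries and present in all conA libraries. XCL1, the C-type chemokine (lymphotactin) that activated T cells and natural killer cells release in mammals, had 208, 335 and 1160.1 normalized read counts (lowest, median and highest) in conA libraries, against 0, 2.78 and 7.01 in Control libraries. The groups did not overlap, and conA 3 and conA 6 stood above the other conA libraries. Its Log2 FC was 7.35 ± 0.68 (SE, n = 6 each, padj = 5.91e-06) unpaired and 7.26 ± 0.34 (padj = 2.12e-11) with the block. CCL1, a CC chemokine that binds CCR8 in mammals, had 538 reads over the conA libraries and 3 over the Control libraries, a ratio of 181 (95% exact interval 61.7 to 882, counting error only). CCR8 itself had 79.8, 141 and 221 normalized counts in conA libraries, against 6.78, 22.3 and 35.2 in Control libraries (Log2 FC 2.83 ± 0.32, padj = 3.61e-05, blocked padj = 1.29e-05). Both the ligand and the receptor were thus higher in every conA library. Of the 24 chemokine and chemokine receptor entries tested, these 3 passed the test, all up, against 2.2% of all genes up. The list's median Log2 FC was 0.30 beside -0.03 for all genes. This list and those below were chosen with earlier results of these data known. Their shares beside all genes are thus a description and no test. CCL17, a T cell attracting chemokine, had 83 reads in 5 of the 6 conA libraries and none in Control libraries, at least 27.98-fold higher when 3 reads stand in for the group total of 0, with padj = 0.056 unpaired and 0.012 blocked.

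Interleukin 2 (IL2), the T cell growth factor, was detected in all 6 conA libraries with 4.15, 31.4 and 79.7 normalized counts (lowest, median and highest). Control libraries held 2 reads in total, both in Control 1, against 222 in conA libraries, a ratio of 112 (95% exact interval 30.7 to 933). In the fit the Log2 FC was 6.38 ± 1.13 (padj = 0.0058) and, with the block, 6.34 ± 0.77 (padj = 0.000313). Of the receptor chains of IL2, 2 were up. IL2RA, the alpha chain (CD25) that raises the receptor's affinity, had 958, 1091 and 1297 normalized counts with conA, against 537, 573 and 914 in Control (Log2 FC 0.79 ± 0.14, padj = 0.00228, blocked padj = 0.000358). IL2RB, the signaling beta chain, had 206, 318 and 529.5 with conA, against 51.5, 95.9 and 121 in Control (Log2 FC 1.79 ± 0.24, padj = 0.000225, blocked padj = 9.86e-05). IL2RG, the common gamma chain, had medians of 9842 with conA and 9862 in Control and did not pass (Log2 FC -0.07 ± 0.11, padj = 0.836, blocked padj = 0.772). IL21R, the receptor of interleukin 21, had 685, 841 and 1737 in conA libraries, against 13.6, 22.6 and 55.9 in Control libraries, with no overlap (Log2 FC 5.33 ± 0.37, padj = 3.7e-06, blocked padj = 6.77e-06). These 4 were the members of the IL2 family list that passed, all up, of 13 tested, against 2.2% of all genes up. With the block the same number passed, against 3.52% of all genes up.

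Other cytokine genes of T helper cells were at or near 0 reads. IFNG, the Th1 effector interferon gamma, had 0 reads in the 6 conA libraries, which allows up to 3 reads in all, and 5 reads in 3 Control libraries. For IL4 the totals were 4 reads in conA and 0 in Control libraries, for IL3 they were 26 and 0, for IL13 11 and 6, for IL17A 1 and 0, for IL21 5 and 1, for IL22 6 and 2, for IL10 7 and 8 and for IL6 3 and 4. None of these passed the test, and the reads of IL3 came from 3 conA libraries, 18 of them from 1. Of the 17 effector cytokines tested, not all of them near 0 reads, only IL18 passed, against 2.2% of all genes up. In mammals IL18 raises interferon gamma production. IL18 had 272, 351 and 875 normalized counts in conA libraries, against 12.4, 31 and 72.7 in Control libraries, with no overlap (Log2 FC 3.57 ± 0.40, padj = 0.000184, blocked padj = 0.00263). In chickens 1, 2, 4 and 6 alone, the call of IL18 was lost with and without the block (padj up to 0.062). A subunit of its receptor, IL18RAP, had 20.7, 34.9 and 78.7 with conA, against 2.42, 4.46 and 13.1 (Log2 FC 2.60 ± 0.47, padj = 0.00293, blocked padj = 0.00162). Likewise up was IL13RA1, a receptor chain for interleukins 4 and 13, with 189, 322 and 588 against 55.7, 63.5 and 159 in Control (Log2 FC 2.07 ± 0.30, padj = 0.000814, blocked padj = 0.000966).

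Receptors that costimulate or restrain T cells had the highest share of members up of the 26 pathway lists, 9 of 15 tested, with none down and a median Log2 FC of 0.96 (8 up with the block). Of all genes tested, 2.2% were up. All 15 had a positive Log2 FC, against 44.1% of all genes tested. As the lists were chosen with earlier results known, this rank is a description and no test. LAG3, an inhibitory receptor for MHC class II, had 588, 1251 and 2008 normalized counts in conA libraries, against 0.887, 6.05 and 25.5 in Control libraries (Log2 FC 7.14 ± 0.47, padj = 3.7e-06, blocked padj = 1.34e-08). The lowest conA library was above the highest Control library by a wide margin. TNFRSF18 (GITR), a receptor of the tumor necrosis factor family found on regulatory and activated T cells in mammals, had 785, 1512 and 2481 with conA, against 139, 154 and 169.6 in Control (Log2 FC 3.42 ± 0.26, padj = 4.22e-06, blocked padj = 4.19e-06). TNFRSF9 (4-1BB), a costimulator of the same family, had 3295, 4435 and 7044 with conA, against 668, 815 and 962 in Control (Log2 FC 2.60 ± 0.21, padj = 5.11e-06, blocked padj = 5.58e-08). CD83, best known from mature dendritic cells and also made by activated lymphocytes, had 439.6, 727 and 1138 with conA, against 7.27, 23.3 and 55.4 in Control (Log2 FC 4.87 ± 0.39, padj = 9.96e-06, blocked padj = 0.00048). Also up were ICOS (Log2 FC 0.96 ± 0.20, padj = 0.0121, blocked padj = 0.000266) and CTLA4 (Log2 FC 0.80 ± 0.18, padj = 0.0197, blocked padj = 0.0104), a costimulator and an inhibitor related to CD28. The call of CTLA4 was lost without conA 3, conA 6 or Control 5 (padj up to 0.0651). CD28 itself, the classical costimulator, had medians of 5624 with conA and 4759 in Control with overlapping groups (padj = 0.358, blocked padj = 0.11). Further calls were lost without single libraries for TNFRSF4 (OX40, Log2 FC 1.64 ± 0.36, padj = 0.0334, blocked padj = 0.0604), for HAVCR1 (TIM-1, Log2 FC 1.53 ± 0.37, padj = 0.0382, blocked padj = 0.0339) and for CD86, a ligand of CD28 and CTLA4 (Log2 FC 3.07 ± 0.74, padj = 0.0203, blocked padj = 0.0116), 8, 8 and 5 of the 12 in turn. Without conA 3 alone, 5 of the 15 list members were up.

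CRTAM, an adhesion receptor of activated T cells and natural killer cells, lay outside that list and had 414, 698 and 1529.6 normalized counts with conA, against 30.3, 46.4 and 64.9 in Control, and the groups did not overlap (Log2 FC 4.24 ± 0.36, padj = 2.22e-05, blocked padj = 7.99e-05).

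**Figure D3:**
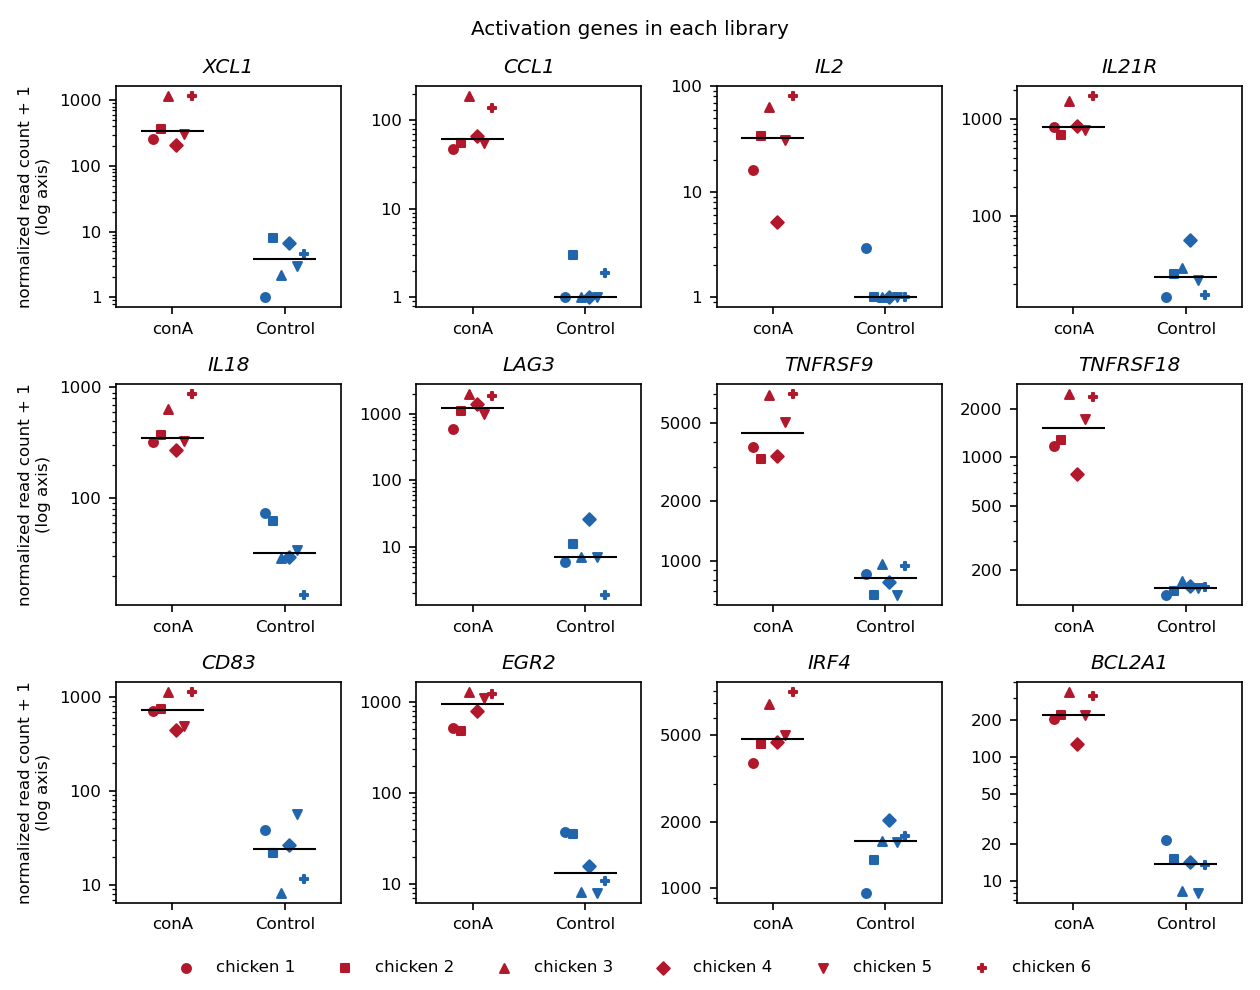
Normalized read count + 1 on log axes for 12 genes in each conA library (red, left) and each Control library (blue, right), with 1 marker shape per chicken number and a bar at the group median. In all 12 panels the conA libraries lie above the Control libraries without overlap, and conA 3 and conA 6 are the upper pair for XCL1 (highest 1160.1) and IL2 (highest 79.7).

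Few genes of the receptor complex and its proximal kinases passed the test. Of 17 entries of the T cell receptor list, 2 were up and none down, against 2.2% of all genes up. They were FYN (Log2 FC 0.54 ± 0.10, padj = 0.00496, blocked padj = 0.000741) and ZAP70 (Log2 FC 0.56 ± 0.11, padj = 0.00869, blocked padj = 0.0021), kinases that act directly below the receptor. CD3E, a signaling chain of the complex, had 19336, 23704 and 28520 normalized counts in conA libraries and 17091, 24152 and 26187 in Control libraries (padj = 0.981, blocked padj = 0.939). LCK, the kinase that phosphorylates the CD3 chains, was lower for all 6 numbers, at 4436, 4916 and 5429 against 5396, 5848 and 7363 in Control, without passing (Log2 FC -0.30 ± 0.10, padj = 0.175, blocked padj = 0.0537).

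Among immediate early transcription factors, EGR1, EGR2, EGR3 and NR4A2 were higher with conA at 24 h. EGR2, a zinc finger factor induced by T cell receptor signaling, had 480.4, 948 and 1291 normalized counts in conA libraries, against 7.05, 12.3 and 35.9 in Control libraries (Log2 FC 5.61 ± 0.41, padj = 5.95e-06, blocked padj = 0.000292). Its relatives EGR3 (Log2 FC 3.10 ± 0.36, padj = 0.000229, blocked padj = 1.78e-05) and EGR1 (Log2 FC 1.80 ± 0.26, padj = 0.000543, blocked padj = 0.00092) were also up, and EGR4 had 57 reads in conA libraries and 0 in Control libraries, at least 19.2-fold higher on the same floor. NR4A2, an orphan nuclear receptor, had 486, 739 and 1213 with conA, against 194, 222 and 251 (Log2 FC 1.85 ± 0.20, padj = 1.75e-05, blocked padj = 1.31e-05). For NR4A3, of the same family, the values were 727, 1243 and 2458 with conA and 11.5, 53.2 and 508 in Control, and its call (Log2 FC 3.59 ± 0.80, padj = 0.0478) was lost with the block (padj = 0.0619) and without any 1 of 11 of the 12 libraries (padj up to 0.122). NR4A1 did not pass in either fit (Log2 FC -0.09 ± 0.94, padj = 1, blocked padj = 0.709), although in chickens 3 to 6 alone it was higher with conA (Log2 FC 2.75, padj = 0.00226). FOS and JUN, the AP-1 subunits, did not pass (padj = 0.821 and 0.863). FOS had a median of 368 in conA libraries, against 343 in Control libraries, and JUN one of 2896, against 3282. The median Log2 FC of the 20 members of the immediate early and NF-kB list was 0.52. In all, 8 of the 20 were up and none down, against 2.2% of all genes up, and the block gave the same count. TNFAIP3 (A20), an NF-kB target that dampens the pathway, was among them (Log2 FC 0.86 ± 0.13, padj = 0.000929, blocked padj = 0.000195).

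Factors that shape T cell fate rose in 5 of 20 cases, with none down in the unpaired fit and 6 up and 1 down (KLF2) with the block. Of all genes, 2.2% were up unpaired, and 3.52% were up and 2.6% down with the block. IRF4, which translates the strength of receptor signaling into effector programs, had 3737, 4823 and 7906 normalized counts with conA, against 951, 1634 and 2049.6 in Control, with no overlap (Log2 FC 1.81 ± 0.21, padj = 0.000141, blocked padj = 6.11e-07). EOMES, a T-box factor of cytotoxic and memory cells, had 40.4, 166 and 251, against 19.4, 36 and 57.4 (Log2 FC 2.04 ± 0.39, padj = 0.00821, blocked padj = 0.0014). BACH2, a repressor that holds back effector differentiation, had 7488, 10723 and 11533, against 4736, 6067 and 6739 (Log2 FC 0.76 ± 0.12, padj = 0.00152, blocked padj = 3.11e-05). TBX21 and GATA3, which direct Th1 and Th2 cells, did not pass (Log2 FC 0.63 ± 0.28, padj = 0.373, blocked padj = 0.153, and -0.32 ± 0.12, padj = 0.229, blocked padj = 0.193). Without conA 3, conA 5, Control 2 or Control 5 the list had 3 members up. MITF, a basic helix-loop-helix factor that drives lysosomal genes in other cell types, was up (Log2 FC 2.49 ± 0.27, padj = 5.78e-05, blocked padj = 0.000266) as the only one of 29 lysosome list members that passed, against 2.2% of all genes up.

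Of 18 genes of the cytokine feedback list 3 were up and none down (4 up with the block), against 2.2% of all genes up. DUSP5, a nuclear phosphatase of the kinase ERK, had 562, 689 and 1208 normalized counts in conA libraries, against 2.42, 22.4 and 94 in Control libraries (Log2 FC 4.57 ± 0.47, padj = 0.000178, blocked padj = 0.00449). DUSP1, a related phosphatase, had 517, 683 and 1317, against 66.6, 100.2 and 154 (Log2 FC 2.97 ± 0.27, padj = 1.66e-05, blocked padj = 0.00128). SPRY2, an inhibitor of receptor tyrosine kinase signaling, was the third (Log2 FC 2.64 ± 0.57, padj = 0.0134, blocked padj = 0.00106). The cytokine-induced inhibitors CISH, SOCS1 and SOCS3 did not pass (padj = 0.749, 0.411 and 0.513).

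Genes of cell survival and of cell death were both up, 5 of 19 tested with none down in either fit. Of all genes, 2.2% were up unpaired and 3.52% with the block. BCL2A1, a short-lived survival protein and NF-kB target, had 128, 217 and 336 normalized counts with conA, against 7.05, 12.8 and 20.3 in Control (Log2 FC 4.21 ± 0.30, padj = 3.1e-07, blocked padj = 2.77e-07). BCL2, the founding survival gene, had 1336, 1651 and 2172, against 745, 857 and 902 (Log2 FC 1.01 ± 0.13, padj = 9.81e-05, blocked padj = 3.78e-05). CASP8, the initiator caspase of death receptors, had 1061, 1243 and 1554, against 418, 509.9 and 593 (Log2 FC 1.36 ± 0.13, padj = 4.34e-06, blocked padj = 4.28e-06), and its inhibitor CFLAR was up as well (Log2 FC 0.75 ± 0.15, padj = 0.0107, blocked padj = 0.000879). BCL2L11 (BIM), a killer of the same family, completed the 5 with a call (Log2 FC 0.73 ± 0.17, padj = 0.0247, blocked padj = 0.0332) that was lost without 7 of the 12 libraries in turn (padj up to 0.0803). FAS, a death receptor, was up (Log2 FC 1.12 ± 0.20, padj = 0.00329, blocked padj = 0.0036) as 1 of 9 members of the cytotoxic list, against 2.2% of all genes up.

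Lists of protein synthesis had many members up, most of them with a Log2 FC under 1. Of 32 ribosome biogenesis genes 11 were up and none down (14 up and 1 down with the block), against 2.2% of all genes up (3.52% with the block). Of the 32, 29 were positive, against 44.1% of all genes, with a median Log2 FC of 0.35. NPM1, the nucleolar chaperone nucleophosmin, had 15113, 19627 and 26657 normalized counts in conA libraries, against 8665, 9636 and 10022 in Control libraries (Log2 FC 1.08 ± 0.12, padj = 3.15e-05, blocked padj = 6.03e-06). NOP58, a core protein of ribosomal RNA methylation, had a Log2 FC of 0.61 ± 0.10 (padj = 0.00167, blocked padj = 0.000576), and MYC, the factor that drives ribosome production, one of 0.43 ± 0.10 (padj = 0.0252, blocked padj = 0.0116). The call of MYC was lost without 5 of the 12 libraries in turn. The list's count of 11 fell to 6 without conA 2, 4 without conA 3, 6 without conA 6, 7 without Control 2, 5 without Control 4 and 4 without Control 5.

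Of 58 ribosomal protein entries, 14 were up and none down (24 up with the block), against 2.2% of all genes up (3.52% with the block). Of the 58, 57 were positive, against 44.1% of all genes, with a median Log2 FC of 0.29. RPL5, a protein of the large subunit, had 21774, 28002 and 30266 normalized counts with conA, against 16721, 17104 and 18267 in Control (Log2 FC 0.63 ± 0.10, padj = 0.000726, blocked padj = 0.000346). RPS6, of the small subunit, had 18102, 23649 and 25885, against 13251, 14570 and 17910 (Log2 FC 0.60 ± 0.11, padj = 0.00254, blocked padj = 0.000886). In mammals many ribosomal protein genes have near-identical copies, between which counts can be split. Here the 58 entries came from 57 symbols, and whether counts were split was not tested. The 14 became 9 without conA 2, 5 without conA 3, 8 without conA 6, 5 without Control 4 and 8 without Control 5. Of the 10 genes with the highest mean normalized counts among those at padj under 0.05, 6 were members of the ribosomal protein list. RPL5, RPL4, RPL27, RPS6 and RPL21 were among them, with RPL21 and RPL27 lost without 6 and 3 of the 12 libraries in turn. The others were PABPC1, NCL, ENSGALG00000013624 and RPL26L1, which that list did not hold. PABPC1, the cytoplasmic poly(A) binding protein, had 33559, 38448 and 42194, against 23746, 24831 and 26900 in Control (Log2 FC 0.59 ± 0.08, padj = 0.000268, blocked padj = 0.000306). RPL26L1, a ribosomal protein paralog, had a Log2 FC of 0.56 ± 0.12 (padj = 0.0128, blocked padj = 0.00711). NCL, the nucleolar protein nucleolin, was at the threshold (Log2 FC 0.48 ± 0.12, padj = 0.0462, blocked padj = 0.0235) and lost its call without 9 of the 12 libraries in turn. Only ENSGALG00000013624, which has no symbol in the files, was lower among the 10 (Log2 FC -0.41 ± 0.10, padj = 0.0369, lost without 10 of the 12 libraries in turn).

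Amino acid supply, the list of serine and asparagine synthesis, transporters and transfer RNA synthetases, had 10 of 28 members up and none down (17 up with the block), with a median Log2 FC of 0.48 and 16 up without Control 1. Of all genes, 2.2% were up unpaired and 3.52% with the block. PSPH, which makes serine in the last step of its pathway, had 181, 238 and 506 normalized counts with conA, against 9.86, 36.5 and 51.4 in Control (Log2 FC 3.25 ± 0.38, padj = 0.000132, blocked padj = 0.00164). PSAT1, the enzyme before it, had 134, 299 and 493, against 30.2, 64.1 and 85.5 (Log2 FC 2.30 ± 0.30, padj = 0.000182, blocked padj = 0.00157). SLC7A1, a transporter of arginine and lysine, had 91.2, 174 and 285, against 26.6, 34.6 and 67.8 (Log2 FC 2.04 ± 0.30, padj = 0.000527, blocked padj = 0.000478). CHAC1, which degrades glutathione and is a target of the amino acid stress factor ATF4, was up as well (Log2 FC 2.86 ± 0.46, padj = 0.00338, blocked padj = 0.00652), and so was asparagine synthetase ASNS (Log2 FC 1.17 ± 0.20, padj = 0.00474, blocked padj = 8.83e-06). PYCR1, a proline synthesis enzyme outside the list, had 382, 498 and 859, against 48.8, 68.7 and 124 (Log2 FC 2.96 ± 0.27, padj = 6.24e-06, blocked padj = 0.000701).

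Chaperones were up in 12 of 34 cases and down in none (11 up with the block), with a median Log2 FC of 0.31. Of all genes, 2.2% were up unpaired and 3.52% with the block. HSPH1, a cochaperone of HSP70, had 488, 765 and 1578 normalized counts with conA, against 79, 182 and 254 in Control (Log2 FC 2.31 ± 0.31, padj = 0.00116, blocked padj = 0.0104). HSPA8, the constitutive HSP70, had 7243, 8411 and 12712, against 3223, 4117 and 5076 (Log2 FC 1.07 ± 0.14, padj = 0.000133, blocked padj = 0.00124). HSP90AA1, the inducible HSP90, had 5603, 8289.6 and 15203, against 2054, 3573 and 5387, and its call (Log2 FC 1.48 ± 0.32, padj = 0.0364) was lost with the block (padj = 0.119) and without 9 of the 12 libraries in turn (padj up to 0.0898). The list's count was 5 without conA 3, 5 without conA 6 and 7 without Control 2.

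Metabolic and cell cycle lists had few members past the test. In glycolysis 2 of 19 genes were up in either fit, against 2.2% of all genes up unpaired and 3.52% with the block. They were ENO1 (enolase, 5599, 6911 and 8865 normalized counts against 3573, 3911 and 4489 in Control, Log2 FC 0.86 ± 0.12, padj = 0.000226, blocked padj = 0.000465) and LDHB (lactate dehydrogenase B, Log2 FC 0.90 ± 0.17, padj = 0.0053, blocked padj = 0.000499). None of 34 oxidative phosphorylation genes passed edgeR's test in either direction (7 up and 0 down at an unadjusted p under 0.05, 0 by DESeq2). None of 29 proteasome genes passed either (8 up and 1 down unadjusted, 3 up and 1 down by DESeq2, and 3 up and 1 down with the block). DNA replication had 1 of 30 members up, the helicase subunit MCM2 (Log2 FC 0.49 ± 0.12, padj = 0.033, blocked padj = 0.0121), against 2.2% of all genes up and with 4 up by DESeq2. The call of MCM2 was lost without 7 of the 12 libraries in turn. RRM2 and TK1, which supply nucleotides for DNA synthesis, had the highest Log2 FC of that list and did not pass edgeR's unpaired test, whereas both passed by DESeq2 (padj = 0.017 for RRM2 and 0.0438 for TK1), in the fit of all 24 libraries and without conA 4. RRM2 had 28, 64.1 and 167 normalized counts with conA, against 9.86, 17.6 and 63.4 in Control (Log2 FC 1.70 ± 0.50, padj = 0.11, blocked padj = 0.0621). TK1 had 2.07, 55.6 and 94.7, against 2.42, 12.7 and 31 (Log2 FC 1.87 ± 0.57, padj = 0.126, blocked padj = 0.0778), with conA 4 below every Control library. None of 36 mitosis genes passed edgeR's test unpaired (2 up and 0 down unadjusted, 0 by DESeq2). CDK1, the mitotic kinase, had medians of 179 with conA and 138 in Control (padj = 0.597, blocked padj = 0.532), and CCNA2, cyclin A2, medians of 128 and 121 (padj = 1, blocked padj = 0.973).

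**Figure D4:**
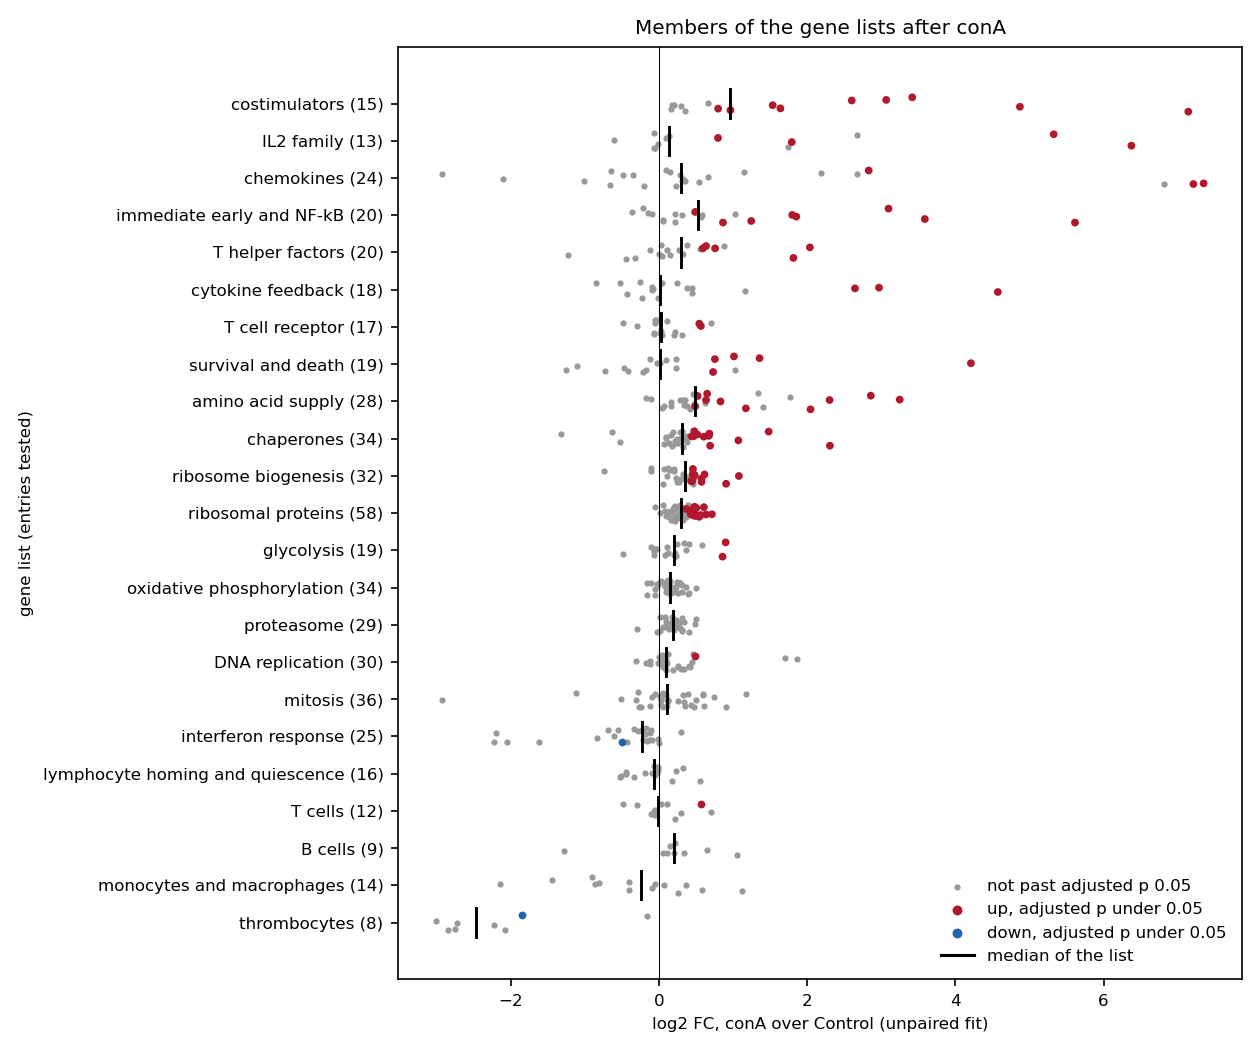
Log2 FC of conA over Control in the unpaired fit for each member of 23 gene lists (rows, entries tested in brackets), with members at padj under 0.05 in red (up) or blue (down), others in grey, and a black bar at each list's median. Medians lie at 0.96 for costimulators, 0.48 for amino acid supply and 0.35 for ribosome biogenesis, near 0 for T cell markers (-0.01) and at -2.48 for thrombocyte markers.

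Further genes among the 20 with the highest Log2 FC (symbol given, no overlap, at least 50 normalized counts on average) belonged to no list of T cell activation. CYP11A1, the first enzyme of steroid hormone synthesis, had 73.9, 96.1 and 265 normalized counts with conA, against 0.822, 3.75 and 10.9 in Control (Log2 FC 4.84 ± 0.49, padj = 3.44e-06, blocked padj = 1.09e-07). HRH2, a histamine receptor, had 134, 212 and 289, against 6.21, 19.3 and 30.3 (Log2 FC 3.55 ± 0.31, padj = 2.64e-06, blocked padj = 6.28e-06). NCF4, a subunit of the phagocyte NADPH oxidase, had 148, 285 and 580.4, against 5.32, 13.8 and 36.3 (Log2 FC 4.29 ± 0.39, padj = 7.49e-06, blocked padj = 1.18e-06). The set also held DIXDC1, a protein of Wnt signaling (Log2 FC 4.79 ± 0.43, padj = 6.3e-07, blocked padj = 6.57e-09), and SRCIN1, an inhibitor of the kinase SRC (Log2 FC 4.75 ± 0.57, padj = 6.98e-05, blocked padj = 1.35e-06). MARCKSL1, a membrane protein that binds actin (Log2 FC 3.52 ± 0.37, padj = 6.83e-05, blocked padj = 8.79e-07), and RGS3, a regulator of G protein signaling (Log2 FC 3.48 ± 0.52, padj = 0.00361, blocked padj = 0.00942), were in it too. ACTA2 (smooth muscle actin) and LAMP3 (a lysosomal membrane protein of mature dendritic cells) closed it, with Log2 FC of 3.88 ± 0.36 (padj = 3.7e-06, blocked padj = 1.32e-06) and 3.62 ± 0.39 (padj = 9.45e-05, blocked padj = 0.000943). Of the 20 genes, 19 kept padj under 0.05 with the block, NR4A3 being the exception. In chickens 1 and 2 alone all 20 were positive (Log2 FC of 1.87 at the lowest and 6.84 at the highest) and 14 passed. The 20 were chosen for groups without overlap in these libraries, so the positive signs follow from the choice and test nothing. Among entries without a symbol the highest with the same filters were ENSGALG00000049221 (283, 351 and 464 normalized counts against 0, 2.33 and 5.81 in Control, Log2 FC 7.11 ± 0.31, padj = 1.27e-13, blocked padj = 2.51e-12) and ENSGALG00000047851 (Log2 FC 5.57 ± 0.44, padj = 1.6e-07, blocked padj = 4.41e-08).

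The microRNA genes and the transporter named next were chosen after their values were seen. The locus of gga-mir-155, a microRNA that activated lymphocytes induce in mammals, had 268 reads in conA libraries and 3 in Control libraries, a ratio of 90.4 (95% exact interval 30.6 to 441). The loci of gga-mir-222a and gga-mir-221, which are neighbors in mammals and share a seed there, were up with Log2 FC of 2.49 ± 0.39 (padj = 0.00084, blocked padj = 0.000276) and 2.05 ± 0.42 (padj = 0.0126, blocked padj = 0.0193). In total RNA libraries such reads can come from the precursor transcript, so they are no measure of the mature microRNA. SLC32A1, the vesicular transporter of the neurotransmitter GABA, had 23.8, 95.3 and 403 normalized counts with conA and 1 read in all Control libraries together. It did not pass in the unpaired fit (padj = 0.074, blocked padj = 1.67e-05) but did without conA 4 or conA 6, with filterByExpr and by DESeq2.

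Reduced genes fell into a small unpaired set and a large set that appeared with the block. In the unpaired fit, 20 of the 28 genes down at padj under 0.05 changed by less than the Log2 FC threshold of 1.5, and 27 of the 28 were also down with the block. INPP4B, a phosphatase that limits PI3 kinase signaling, had 1148, 1177 and 1291 normalized counts with conA, against 1727, 1815 and 2877 in Control, with no overlap (Log2 FC -0.76 ± 0.13, padj = 0.00154, blocked padj = 0.000821, unpaired at most 0.00647 without any 1 library). TLNRD1, a talin-related actin bundling protein, had 1768, 1994 and 2411, against 2497, 3078 and 4108 (Log2 FC -0.61 ± 0.12, padj = 0.00784, blocked padj = 0.000337). IRF1, a transcription factor of the interferon response, had 4483, 4622 and 5798, against 5730, 6558 and 9749.6, with conA lower for all 6 numbers (Log2 FC -0.50 ± 0.12, padj = 0.0357, blocked padj = 0.00166). The calls of IRF1, DOK3 (an adaptor that restrains immune receptors, Log2 FC -0.82 ± 0.19, padj = 0.0282, blocked padj = 0.0218), SP1 (a general transcription factor, Log2 FC -0.41 ± 0.10, padj = 0.0403, blocked padj = 0.0122) and SSH2 (a phosphatase of the actin regulator cofilin, Log2 FC -0.45 ± 0.11, padj = 0.0427, blocked padj = 0.00427) were lost without 7, 8, 8 and 9 of the 12 libraries in turn. These genes, IRF1 apart, are in no list and were named after their values were seen.

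IRF1 was the only one of 25 interferon response genes that passed unpaired, where 0.138% of all genes were down (2.6% with the block). With the block 3 were down, IRF1, OASL (an antiviral protein, blocked Log2 FC -0.73 ± 0.16, padj = 0.0124, unpaired padj = 0.297) and IFI6 (an interferon-induced mitochondrial protein, blocked Log2 FC -2.10 ± 0.37, padj = 0.00702, unpaired padj = 0.396). OASL was far higher in Control 1 (1551 normalized counts) than in the other Control libraries (430 to 642). IFI6 differed widely between birds, with 23.1, 78.7 and 1128 (lowest, median and highest) in BS libraries. Of the 25, 24 had a negative Log2 FC and 1 a positive one, whereas 44.1% of all genes were positive. The median was -0.23 beside -0.03 for all genes. Of 16 genes of lymphocyte homing and quiescence none passed unpaired by edgeR (2 up and 4 down at an unadjusted p under 0.05, 1 up by DESeq2). With the block 4 were down and 1 up (LEF1), against 2.6% of all genes down and 3.52% up. KLF2, which keeps T cells quiescent and in circulation, had 12980, 16914 and 17903 normalized counts with conA, against 15726, 21973 and 27115 in Control (Log2 FC -0.45 ± 0.14, padj = 0.108, blocked padj = 0.0324). Its target S1PR1, the receptor by which lymphocytes leave lymphoid organs, had 4342, 4892 and 5386, against 4476, 6606 and 7293 (padj = 0.194, blocked padj = 0.0425), and the gut homing integrin ITGB7 had 3763, 4256 and 6426, against 4983, 6346 and 7955 (padj = 0.145, blocked padj = 0.011). All 3 were lower with conA for each of the 6 numbers, but none passed in the block without chickens 3 and 5 (padj = 0.127, 0.242 and 0.0922).

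The 298 genes called down with the block had a median blocked Log2 FC of -2.56, and 296 of them overlapped between the groups. The other 2 lay wholly below Control, against 77 of all genes tested (0.38%). By the numbers as labelled, 157 of the 298 were lower with conA for all 6. Of the 169 genes called up, 153 were higher with conA for all 6. The share of all genes lower or higher for all 6 was not taken, and the same libraries chose both sets. Both counts are therefore a description. In 276 of the 298, Control libraries of chickens 1 and 2 were both above those of chickens 3 to 6, a pattern that 3072 of all 20266 genes showed (15.2%) and 21 of the 169 genes called up. Thrombocyte markers were among them. Of the 8 thrombocyte markers tested, 5 were down with the block (F13A1, GP9, TUBB1 and ITGA2B among them) and 1 unpaired (F13A1), against 2.6% and 0.138% of all genes, and none was positive. In the block without chickens 3 and 5, F13A1 (padj = 0.00808) and GP9 (padj = 8.01e-05) were still down, while TUBB1 (padj = 0.0649) and ITGA2B (padj = 0.131) did not pass. GP1BB, ITGB3 and THBS1 did not pass (blocked padj = 0.262, 0.462 and 0.913). The 8 markers summed to 15806, 2560, 1093, 695, 1024 and 1002 normalized counts in conA 1 to 6, against 97650, 35822, 3862, 4481, 2203 and 981 in Control 1 to 6. The sum was lower with conA for 5 numbers and about equal for chicken 6. In bulk libraries fewer cells of a type and less RNA per cell cannot be told apart, so this is no count of thrombocytes, and the part of thrombocyte content in the 298 calls was not tested.

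Levels within a bird and between birds differed in scale. GP9, a subunit of the von Willebrand factor receptor, had 403, 68.9, 4.21, 6.22, 8.33 and 1.06 normalized counts in conA 1 to 6, against 2355, 1164, 110.2, 123, 28.2 and 8.87 in Control 1 to 6. Each conA library was below the Control library of its number, 3.38-fold to 26.2-fold, with both ends of that range from the doubted numbers 5 and 3. With conA 3 and conA 5 exchanged, chosen after seeing the data, the range was 5.85-fold to 19.8-fold. Control libraries themselves spanned 8.87 to 2355. The Log2 FC was -2.85 ± 1.43 (padj = 0.446) unpaired and -3.22 ± 0.26 (padj = 1.78e-06) with the block. F13A1, a clotting factor subunit carried by platelets and macrophages, was the only gene called down unpaired that met all the filters for naming, with 15.6, 39.5 and 83.4 in conA libraries, against 86.3, 139.8 and 273 in Control libraries (Log2 FC -1.85 ± 0.41, padj = 0.0239, blocked padj = 0.00294). The unpaired call of F13A1 was lost without conA 2, conA 5, conA 6, Control 2 or Control 5 (padj up to 0.0663).

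The 12 genes with a symbol and the smallest blocked padj among those called down were looked at after their values were seen. A steady fall within numbers is part of that choice, so the ranges below test nothing. KALRN, a guanine nucleotide exchange factor, led them. It was lower 7.03-fold to 13.3-fold within numbers (6.56-fold to 15.7-fold with conA 3 and 5 exchanged), at 853, 174, 29.5, 33.2, 25.0 and 5.31 normalized counts in conA 1 to 6, against 5999.8, 2113, 392, 381, 193 and 47.9 in Control 1 to 6 (blocked Log2 FC -3.24 ± 0.15, padj = 1.34e-08, or 4.82e-06 without chickens 3 and 5, unpaired padj = 0.397). SLC6A4, the serotonin transporter that loads platelets with serotonin in mammals, was lower 4.19-fold to 27.0-fold within numbers, or 5.84-fold to 18.2-fold with conA 3 and 5 exchanged (blocked Log2 FC -3.27 ± 0.23, padj = 2.61e-07, unpaired padj = 0.396). TREM-B1, a chicken receptor of the TREM family (blocked Log2 FC -3.10 ± 0.23, padj = 6.4e-07, unpaired padj = 0.375), and ENTPD1 (CD39), which breaks down extracellular ATP (blocked Log2 FC -3.03 ± 0.23, padj = 1.18e-06, unpaired padj = 0.417), were in the same set. So were GP9, CDC42EP1, RBPMS2, GJA4, CPN2, STRIP2, SERPINB11 and ADCY1, with blocked Log2 FC from -3.49 (RBPMS2) to -2.71 (STRIP2). PTGS1 (cyclooxygenase 1), the platelet enzyme of thromboxane synthesis, and HTR1B, a serotonin receptor, had blocked Log2 FC of -2.81 ± 0.29 (padj = 1.17e-05, unpaired padj = 0.457) and -3.06 ± 0.23 (padj = 2.21e-06, unpaired padj = 0.426). Of 36 mitosis genes 1 was down with the block, against 2.6% of all genes. It was CDC20, an activator of the anaphase-promoting complex (blocked Log2 FC -3.03 ± 0.26, padj = 2.37e-05, unpaired padj = 0.411). Its Control level followed the same order of birds, with 20.4, 223 and 4392 (lowest, median and highest), against 9.57, 27.5 and 603 in conA libraries.

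**Figure D5:**
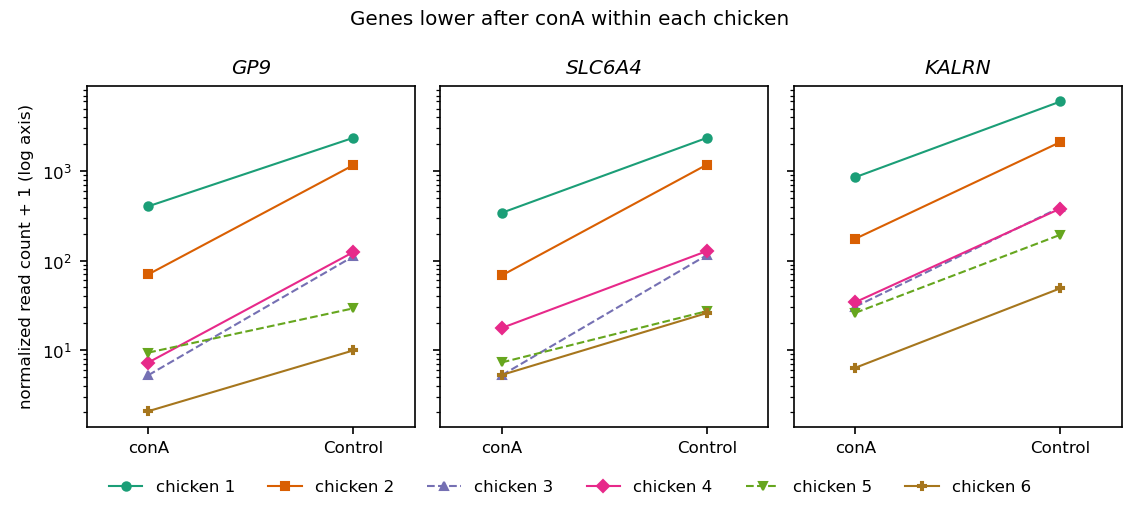
Normalized read count + 1 on a log axis for GP9, SLC6A4 and KALRN in the conA (left) and Control (right) library of each chicken number, joined by a line (dashed for chickens 3 and 5, whose conA libraries matched the other bird). Every line is lower at conA, while the birds differ far more from each other: Control libraries run from 8.87 to 2355 for GP9. The genes were among those with the smallest blocked padj, so the fall within numbers is part of the choice.

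The count of 298 moved with the birds in the fit. It was 188 without chicken 1, 203 without chicken 2, and 86 in chickens 3 to 6 alone. The other blood cell lists were read in the same fits. None of the 9 B cell, 9 erythrocyte or 4 heterophil markers passed in either fit. By edgeR unpaired, 1 B cell marker was up at an unadjusted p under 0.05 and none was down, erythrocyte and heterophil markers had 0 in either direction, and DESeq2 called 0 in all 3 lists. In the monocyte and macrophage list TREM2, a myeloid receptor, was the only 1 of 14 to pass, down with the block (blocked Log2 FC -2.22 ± 0.48, padj = 0.0103, unpaired padj = 0.461). Of all genes, 2.6% were down with the block. Of 12 T cell entries, ZAP70 passed, against 2.2% of all genes up.

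The bacterial treatments gave a second comparison from the same birds, with 1 fit over all 24 libraries. In it 191 genes (0.942%) were called up and 23 (0.113%) down in conA against BS libraries, and 179 (0.883%) and 16 (0.0789%) in conA against BV libraries. With the block the numbers down were 404 and 376. LAG3 had 588, 1251 and 2008 normalized counts with conA (lowest, median and highest), against 5.54, 10.4 and 34 with BS and 2.5, 7.04 and 11.2 with BV (Log2 FC 6.37 ± 0.39, padj = 4.89e-11, and 7.47 ± 0.43, padj = 1.3e-11). IL21R and EGR2 likewise remained apart, with Log2 FC of 5.60 ± 0.33 (padj = 1.33e-11) and 4.80 ± 0.35 (padj = 9.22e-10) against BS. CD83 had 439.6, 727 and 1138 with conA, against 38, 83.4 and 257 with BS and 37.9, 102 and 317 with BV (Log2 FC 2.74 ± 0.48, padj = 0.000905, and 2.71 ± 0.48, padj = 0.000975). ACTA2 did not pass in either, at 64.3, 215 and 253 with conA, against 29.2, 65.2 and 168 with BS and 14.7, 68.2 and 159.5 with BV (padj = 0.0887 and 0.081). For IL2RA the same held, with 958, 1091 and 1297 with conA, against 748, 877 and 1095 with BS and 636, 888 and 1284 with BV (padj = 0.334 and 0.437). These comparisons share the conA libraries with the comparison against Control and are given side by side only.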

How the data were processed

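Total RNA of the pooled duplicates was sequenced by the authors on a NovaSeq 6000 (SMART-Seq Stranded Kit, paired reads), trimmed with Skewer and aligned to GRCg6a with STAR 2.7.3. Which tool counted the reads, and on which gene annotation, was not stated by the paper or the labels. The deposited counts per gene for all 24 libraries were the input of every test. The deposited normalized signal (counts divided by the authors' DESeq2 1.24.0 size factors, checked as 1 constant ratio per library) was used for levels. The 20266 of 23910 genes with a total of 2 reads or more over the series were tested with edgeR 4.0.16 (TMM normalization, robust glmQLFit, glmQLFTest, R 4.3.3) on the 12 conA and Control libraries, with Benjamini-Hochberg adjustment over all genes tested. SE is the Log2 FC over the root of the F statistic. Fits with the bird as a block, DESeq2 1.42.0, other normalizations and filters, and fits without single libraries were alternatives. The pairing comes from the biological replicate number, which names the bird. The scripts were tested on simulated data with 100 genes changed 2-fold and 100 changed 4-fold. The unpaired fit recovered 49 and 93 of them, and the blocked fit 43 and 90. The simulation held no differences between birds, so it did not test how the block acts on such differences. Depth was 20189066 to 31242160 counts in conA and Control libraries, and intervals and floors cover counting error only. No pair of replicates was as alike as 1 library counted again (chi-square per degree of freedom at least 33.9). Columns of per-sample values left out numbered 0. Genes were named by rule: the 20 highest and 20 lowest Log2 FC among called genes with a symbol, no overlap and at least 50 normalized counts on average, the called members of each list (up to 6 by p) with the members that define it, and the 10 most counted genes at padj under 0.05. A few single genes are not reported here. Lists (660 of 803 genes matched by symbol) and members were chosen with earlier results of these data known. List tests, sequences and promoter motifs are not part of this work. Of the lists not described in the text, cholesterol and fatty acid synthesis had 1 of 31 members up, G1 regulators 0 of 21 (3 up and 3 down at an unadjusted p under 0.05, 1 down by DESeq2), pattern receptors 0 of 19 (0 up and 2 down, 0 by DESeq2), antimicrobial genes 0 of 12 (0 and 0, 0 by DESeq2) and dendritic cell markers 2 of 9 (CD83 and LAMP3). Of all genes, 2.2% were up. Only 3 of the 9 dendritic cell markers had a positive Log2 FC, against 44.1% of all genes, and their median was -0.16.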

Additional observations from a re-analysis of the deposited data

Results flagged for a closer look

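Chance marks about 1 in 20 groups as holding a sample far from the others by Dixon's test, and 14 of 266 groups (genes described, conA and Control apart) did so. In conA libraries, conA 4 stood apart for ACTA2 (64.3 normalized counts, against 166 to 253 in the other 5), BATF (1113, against 639 to 715), CCNA2 (89.2, against 121 to 141), CD86 (0, against 9.37 to 25.3) and TK1 (2.07, against 34.5 to 94.7). FAM117A in conA 1 (2032, against 1389 to 1539), GP1BB in conA 1 (613, against 123 to 161) and FOS in conA 2 (812, against 288 to 378) were high. In Control libraries, Control 1 was high for OASL (1551, against 430 to 642), RGS3 (164, against 12.4 to 31.2) and SP1 (13674, against 9624 to 10638) and low for CD3E (17091, against 23133 to 26187). DOK3 was high in Control 2 (115, against 92.9 to 98.8) and CDK1 in Control 5 (197, against 119 to 141). What set these libraries apart was not tested.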

How the results depend on the processing

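Among 94 genes described at padj under 0.05, 72 kept it without each of the 12 libraries in turn, 22 lost it without at least 1, and none reversed. All settings used the same 12 libraries unless named. Counts of genes called up moved by over 1.5 times only with fewer birds: 85 in chickens 1, 2, 4 and 6 without the block and 25 in chickens 1 and 2 (140 to 202 without single libraries). With the replicate block, which pairs libraries by bird, the counts were 298 called down, 714 up and 526 down at padj alone. With the block on chickens 1, 2, 4 and 6 they were 297 called down, 415 up and 441 down, with the block on chickens 3 to 6, added after seeing the data, 86 called down, 441 up and 127 down, and with conA 3 and 5 exchanged in the block, 323, 913 and 716. Leaving out 1 bird from the block gave 149 to 196 called up, 188 to 292 called down, 463 to 635 up and 253 to 530 down, where 305 down was without chicken 1 and 253 without chicken 2. Without the block, chickens 1, 2, 4 and 6 gave 0 called down, 126 up and 1 down, chickens 3 to 6 gave 21 called down, and chickens 1 and 2 gave 3 called down, 25 up and 3 down. A covariate that set chickens 1 and 2 apart from chickens 3 to 6 gave 218 called down and 325 down. It was the same for the conA and the Control library of a bird, so it did not separate the numbering from conA. With filterByExpr the counts were 2 and 44, with DESeq2 32 and 152, and all 24 libraries in 1 fit gave 66 down. Leaving out single libraries gave 1 to 15 called down, 295 to 473 up and 6 to 42 down. Against BS and BV the block gave 404 and 376 called down, and leaving out single conA libraries gave 162 to 211 up and 9 to 21 down against BS, and 150 to 196 and 6 to 13 against BV. The Log2 FC of NR4A1 turned to 2.75 in chickens 3 to 6 alone. The cause of these differences was not tested. With the block 3 of the genes described lost padj under 0.05 and 25 gained it, and total-count scaling lost 13. Fits of fewer birds lost more. The block on chickens 1, 2, 4 and 6 lost 18, IL18, CHAC1, RGS3, EGR4, CD86 and gga-mir-221 among them, and gained 21. Those birds without the block lost 51, chickens 3 to 6 lost 17 and gained 12, and chickens 1 and 2 lost 75. Promoter motifs were not run. Depth limits genes of few reads, such as IL2 in Control.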
